A study of Mus musculus with 3 samples.

Results

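The genes described here are 9 members of the Hedgehog and parathyroid hormone related protein system, *Ihh*, *Ptch1*, *Smo*, *Gli1*, *Gli2*, *Gli3*, *Hhip*, *Pthlh* and *Pth1r*. They were chosen by symbol from the 55422 genes counted, and each symbol matched 1 row. Single-cell RNA sequencing by 10x Chromium, which tags RNA near its 3′ end, was applied to bone of untreated C57BL/6 mice aged 3 weeks. In the Pdgfra-GFP library, GFP+ cells were sorted from the metaphysis and epiphysis of femur and tibia of males heterozygous for a *Pdgfra-H2B-GFP* knock-in, so that only cells with activity of *Pdgfra*, and cells carried over by the sort, were sampled. Metaphyseal replicates 1 and 2 came from C57BL/6J males, whose cells were depleted with magnetic beads for haematopoietic lineage markers, CD45 and CD117 and were not sorted for GFP. The sort and the depletion both set which cells were present, so shares of cell types are not those of the tissue, and nothing in the sources used here says whether the replicates came from separate mice or pools, so spread between libraries may be technical.

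In the growth plate, Indian hedgehog, encoded by *Ihh*, is secreted by prehypertrophic and hypertrophic chondrocytes and binds the receptor PTCH1, which then releases the signal transducer SMO. SMO acts through the transcription factors GLI1, GLI2 and GLI3, and *Gli1*, *Ptch1* and *Hhip* are classical targets of the pathway, the last encoding an inhibitor that binds Hedgehog ligands. Parathyroid hormone related protein, encoded by *Pthlh*, is made by periarticular and resting chondrocytes under the influence of Hedgehog and signals through PTH1R to delay hypertrophy, and PTH1R is also the receptor for parathyroid hormone on osteoblasts.

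Positions are those of the Gencode M21 annotation of GRCm38, in which all 9 genes are protein-coding. The upstream sequences of 3 genes are printed because the results turn on them: the ligand gene *Ihh*, the response gene *Ptch1* that led in septoclast-like cells, and the inhibitor gene *Hhip* that was highest in chondrocyte-like cells. *Ihh* lies at chr1:74945315-74951672 on the minus strand, and the 250 bases before its start at chr1:74951673-74951922 follow first. *Ptch1* lies at chr13:63508328-63573598 on the minus strand, and the RefSeq window at chr13:63565736-63565985 stands before a start inside the gene, not before its outermost end. *Hhip* lies at chr8:79965851-80058006 on the minus strand, with its window at chr8:80058009-80058258. All are from RefSeq on GRCm38.p6, are written 5′ to 3′ on the strand of the gene, and carry no capitals because no searched motif was found.
*Ihh*: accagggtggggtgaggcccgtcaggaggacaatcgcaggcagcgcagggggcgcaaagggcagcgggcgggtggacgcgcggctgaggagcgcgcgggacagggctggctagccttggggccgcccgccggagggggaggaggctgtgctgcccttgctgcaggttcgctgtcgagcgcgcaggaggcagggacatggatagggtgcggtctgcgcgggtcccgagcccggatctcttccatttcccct
*Ptch1*: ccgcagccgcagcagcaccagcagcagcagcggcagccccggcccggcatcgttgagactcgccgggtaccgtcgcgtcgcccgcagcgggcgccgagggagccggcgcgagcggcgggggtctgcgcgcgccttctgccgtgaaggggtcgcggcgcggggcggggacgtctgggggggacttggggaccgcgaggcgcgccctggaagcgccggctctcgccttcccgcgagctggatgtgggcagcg
*Hhip*: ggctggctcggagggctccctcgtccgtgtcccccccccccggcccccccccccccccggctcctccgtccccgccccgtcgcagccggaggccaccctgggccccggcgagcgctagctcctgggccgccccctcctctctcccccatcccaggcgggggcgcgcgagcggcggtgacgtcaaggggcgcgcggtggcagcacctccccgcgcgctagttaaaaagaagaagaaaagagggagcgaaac

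The promoter table held 8 of the 9 genes, and *Gli1* had no entry. The letters GACCACCCA, the consensus site of GLI factors, the shorter GLI core CCACCCA that is part of it, and the RUNX core TGTGGT were searched on both strands in the 250 bases before each start. They occurred in 0.225%, 8.11% and 14.0% of 32851 promoter windows of this length. Neither GLI motif occurred in a window of the 8 genes, and the RUNX core occurred 1 time, in *Gli3*, 120 bases before the start. These counts describe these windows only and say nothing of binding by a factor.

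The metaphyseal libraries held 25243314 and 22082735 UMIs, unique molecular identifiers that count captured RNA molecules without PCR copies, and the Pdgfra-GFP library held 91747759. After filters, 2386, 2006 and 11256 cells remained, with medians of 6258, 6426 and 5337 UMIs. Cells were assigned by scores from the UMIs of marker genes, none of which is among the 9. Each score was the mean over a marker list of log-scaled UMIs, with every marker scaled to and capped at its 90th percentile. A name such as SC-like (septoclast-like) means only that the score of that marker list led by a set margin. This gave 13, 10 and 201 SC-like cells, 55, 45 and 1028 mpMSC-like (metaphyseal stromal) cells, 754, 689 and 4368 dpMSC-like (diaphyseal stromal) cells, 222, 194 and 1844 OB-like (osteoblast) cells and 43, 36 and 1746 chondrocyte-like cells in metaphyseal replicate 1, metaphyseal replicate 2 and the Pdgfra-GFP library. Cells within 0.025 of the margin on either side numbered 8, 0 and 42 where the SC list led and 8, 19 and 244 where the mpMSC list led. These counts include cells below the margin, which were left ungated. SC-like cells had a median score of 0.513 for their own markers and 0.216 for the mpMSC markers, and all 9 SC markers were present. Of the osteoclast markers *Ocstamp* was at 0 and *Atp6v0d2* at 1.08 CPM. The osteoclast list also held *Acp5*, *Ctsk* and *Mmp9*, whose levels are not given here, and *Mmp9* is an SC marker as well. Whether osteoclasts were in the gate is therefore not settled by these levels. When cells were clustered instead, 2 of the 13, 4 of the 10 and 151 of the 201 SC-like cells fell in clusters with SC markers, so the metaphyseal SC-like cells are few and uncertain. Libraries shared 0, 9 and 10 cell barcodes, with 0.704, 3.95 and 3.32 expected from chance for the same pairs.

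Levels are given as CPM, the UMIs of a gene in every 1000000 UMIs of a population in a library, with the values always in the order metaphyseal replicate 1, metaphyseal replicate 2 and Pdgfra-GFP. Because the genes were chosen with their pattern in these populations known, their levels, ratios and shares are descriptions without a test. Ranges in parentheses are exact 95% intervals, taken from the Poisson distribution for levels and the binomial for shares, and reflect counting error only. Levels of different genes are not compared.

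*Ihh* RNA was found in chondrocyte-like cells. Among the sub-gates drawn within these by further markers, it was highest in the cells with the hypertrophic markers *Col10a1*, *Panx3*, *Mef2c* and *Runx3*. Its level in chondrocyte-like cells was 101, 133 and 116 CPM (68, 96 and 1771 UMIs), a mean of 117 ± 15.8 CPM (SD, n = 3). The 3 libraries lay close together, but the gate was not made up alike in them. Hypertrophic-like cells were 9 of 43, 8 of 36 and 96 of 1746 chondrocyte-like cells, and their own *Ihh* level differed between libraries, as given below. Chondrocyte-like cells held 73.1%, 100% and 97.3% of all *Ihh* UMIs found in cells, while they held 3.49%, 4.38% and 20.2% of the UMIs of all genes. In SC-like and mpMSC-like cells 0 UMIs were found in both metaphyseal libraries, and the Pdgfra-GFP library gave 0.616 and 0.604 CPM. OB-like cells had 0.218, 0 and 0.895 CPM, so no value found in the stromal or OB-like cells reached 1 CPM of the ligand gene. The metaphyseal sums held only 136213 and 90357 UMIs in SC-like and 582207 and 442669 UMIs in mpMSC-like cells. Each is below the 1000000 UMIs at which 1 UMI equals 1 CPM, so 0 UMIs there do not show a level under 1 CPM. Set against mpMSC-like cells, the chondrocyte-like level was at least 19.6-fold higher in each metaphyseal library, with a floor of 3 UMIs in mpMSC-like cells, and 193-fold (75.1 to 708) higher in the Pdgfra-GFP library.

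**Figure D1:**
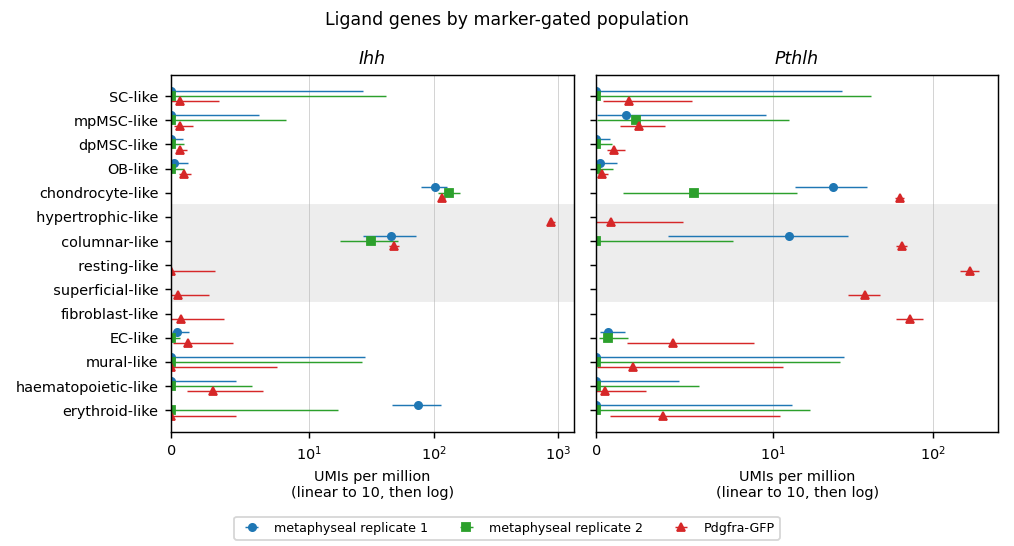
Levels of the ligand genes *Ihh* and *Pthlh* in CPM (x axis, linear to 10 and logarithmic above) by marker-gated population (rows, chondrocyte sub-gates shaded), with 1 point per library and exact 95% Poisson intervals as bars. *Ihh* stands at 879 CPM in hypertrophic-like and 0 in resting-like cells, and *Pthlh* at 0.880 and 169 CPM in the same 2 gates.

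Within the chondrocyte-like cells of the Pdgfra-GFP library, *Ihh* fell into a sharp order across the sub-gates. The 96 hypertrophic-like cells had 879 CPM (825 to 935, 998 UMIs), the 1035 columnar-like cells 48.1 CPM, the 334 superficial-like cells 0.492 CPM and the 150 resting-like cells 0 UMIs, which allows up to 2.57 CPM. The first 2 of these gates differed from each other and from the rest by more than their counting intervals, and the superficial-like and resting-like cells could not be told apart. In the metaphyseal libraries, columnar-like cells had 45.4 and 31.4 CPM, and the 9 and 8 hypertrophic-like cells, under the minimum of 10 cells, had 245 and 379 CPM. Hypertrophic-like cells were thus the highest sub-gate in every library, at levels that differed between libraries. The 6, 4 and 131 chondrocyte-like cells outside the sub-gates held 24, 28 and 307 *Ihh* UMIs among 104136, 73926 and 1215337 UMIs. Hypertrophic-like cells held 26, 53 and 998 among 105985, 139974 and 1135998. The cells outside the sub-gates were therefore near the hypertrophic-like level in the metaphyseal libraries and below it in the Pdgfra-GFP library. With a minimum of 500 genes per cell, at which all 3 libraries held at least 10 hypertrophic-like cells, their mean was 434 CPM, and with clusters in place of gates 429 CPM. An *Ihh* UMI was present in 37.2%, 36.1% and 8.48% of chondrocyte-like cells at median depths of 16146, 20774 and 8413 UMIs, and in 0%, 0% and 0.772% of haematopoietic-like cells, which should lack it, at 7448, 9520 and 6099 UMIs. With each cell reduced at random to 2000 UMIs, a step that dropped only cells of the Pdgfra-GFP library (5 of 1746 chondrocyte-like cells), the chondrocyte-like shares were 16.3%, 5.56% and 4.19%. Cells with 10 or more *Ihh* UMIs numbered 44 in the Pdgfra-GFP library, all of them chondrocyte-like, 25 hypertrophic-like, 11 columnar-like and 8 outside the sub-gates, and the highest held 165.

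Outside the chondrocyte gate, *Ihh* stood out most at 1 place. Erythroid-like cells of metaphyseal replicate 1 had 74.2 CPM, and all 21 of these UMIs lay in a single barcode. That barcode had 12587 UMIs in all and held 171 UMIs of *Col2a1*, 246 of *Col10a1* and 45 of *Acan*, chondrocyte matrix genes, beside 3235 of the haemoglobin gene *Hbb-bs*. The erythroid-like cells of the other 2 libraries had 0 *Ihh* UMIs. A haematopoietic-like barcode of the Pdgfra-GFP library also held chondrocyte genes, with 47 UMIs of *Col2a1*, 34 of *Col10a1* and 10 of *Acan*. It carried 5 of the 6 *Ihh* UMIs of that gate. Barcodes with fewer than 100 UMIs, taken as near-empty droplets with free RNA, had 4.19, 3.20 and 27.3 CPM of *Ihh*, against 4.84, 5.81 and 24.1 CPM over all cells.

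*Pthlh*, which encodes parathyroid hormone related protein, had a different order across the chondrocyte sub-gates. In the Pdgfra-GFP library it was highest in resting-like cells, marked by *Efemp1*, *Sfrp5* and *Chil1*, at 169 CPM (147 to 195, 198 UMIs). Columnar-like cells had 63.7 CPM, superficial-like cells 37.4 CPM and hypertrophic-like cells 0.880 CPM. Each of these neighbours in the order differed by more than its counting interval. That interval does not cover UMIs gathered in 1 cell, and 1 superficial-like cell held 38 of the 76 *Pthlh* UMIs of its gate. The place of the superficial-like cells in the order is therefore uncertain, and with 1 library there is no replicate check. A *Pthlh* UMI was present in 41.3% of resting-like cells, and in 20.7% after thinning. Over all chondrocyte-like cells the level was 23.8, 5.53 and 62.1 CPM (16, 4 and 945 UMIs), a mean of 30.5 ± 28.8 CPM (SD, n = 3), so the libraries differed widely, and without the Pdgfra-GFP library the mean was 14.7 CPM. Fibroblast-like cells, of which only the Pdgfra-GFP library had any, held 71.9 CPM (58.8 to 87.0), near the columnar-like level. The stromal and osteoblast populations were low: mpMSC-like cells had 1.72, 2.26 and 2.41 CPM, SC-like cells 0, 0 and 1.85, dpMSC-like cells 0, 0 and 1.03, and OB-like cells 0.218, 0 and 0.330. Near-empty droplets held 0.466, 0 and 17.3 CPM of *Pthlh*.

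Among the receptors, *Ptch1*, which encodes the Hedgehog receptor and is itself a target of the pathway, was highest in SC-like cells in every library among populations of at least 10 cells. SC-like cells had 279, 309.9 and 277 CPM (38, 28 and 449 UMIs), a mean of 288.5 ± 18.6 CPM (SD, n = 3). The mpMSC-like cells had 65.3, 110.7 and 39.5 CPM and the dpMSC-like cells 64.4, 72.8 and 33.6 CPM. Every SC-like library was above every library of the mpMSC-like, dpMSC-like, OB-like and whole chondrocyte-like gates. OB-like cells were lowest of these at 43.6, 31.1 and 18.9 CPM, while chondrocyte-like cells were next to the SC-like cells at 120.5, 155 and 121 CPM. In the order of means, chondrocyte-like cells were clear of mpMSC-like cells in all libraries, whereas the mpMSC-like and dpMSC-like levels overlapped. The SC-like level was 4.27-fold (2.65 to 6.88), 2.80-fold (1.69 to 4.54) and 6.996-fold (5.99 to 8.18) that of mpMSC-like cells, a fitted log2 difference of 2.11 that stayed between 1.61 and 2.59 under all alternatives run. In CPM, the SC-like level was 6.40, 9.98 and 14.6 times the OB-like level. These values depend on the scaling, as the fitted log2 difference of OB-like from mpMSC-like cells was -0.37, between -1.12 and -0.01 under all alternatives run. The OB-like levels of metaphyseal replicate 2 and the Pdgfra-GFP library also lay below the 40.7 and 38.7 CPM of near-empty droplets. These ratios rest on only 13 and 10 SC-like cells in the metaphyseal libraries, and the mean SC-like level was 220.5 CPM with clusters in place of gates and 439 CPM with cells thinned to 2000 UMIs.

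A *Ptch1* UMI was present in 61.5%, 80.0% and 64.7% of SC-like cells at median depths of 8817, 9000.5 and 8064 UMIs, and in 40.0%, 42.2% and 17.7% of mpMSC-like cells at 10058, 10250 and 6228 UMIs. Thinned to 2000 UMIs per cell, the shares were 38.5%, 50.0% and 36.8% against 5.45%, 13.3% and 6.96%, so the SC-like cells led at equal depth in each library. Thinning left out 8 SC-like and 37 mpMSC-like cells, all from the Pdgfra-GFP library. Haematopoietic-like cells gave 4.94%, 5.08% and 5.02% before and 3.70%, 3.39% and 3.17% after thinning, and near-empty droplets 35.4, 40.7 and 38.7 CPM. Within the chondrocytes of the Pdgfra-GFP library, *Ptch1* was highest in resting-like cells (186 CPM) and columnar-like cells (142 CPM), lower in hypertrophic-like cells (67.8 CPM) and lowest in superficial-like cells (24.6 CPM). Columnar-like cells of the metaphyseal libraries had 113 and 192 CPM, a range that spans the resting-like value. The 3 and 2 metaphyseal resting-like cells had 404 (253 to 612) and 420 CPM (224 to 718) from 22 and 13 UMIs, above the SC-like cells of the same libraries with intervals that overlap theirs, and 1 superficial-like cell of metaphyseal replicate 1 held 8 *Ptch1* UMIs.

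**Figure D2:**
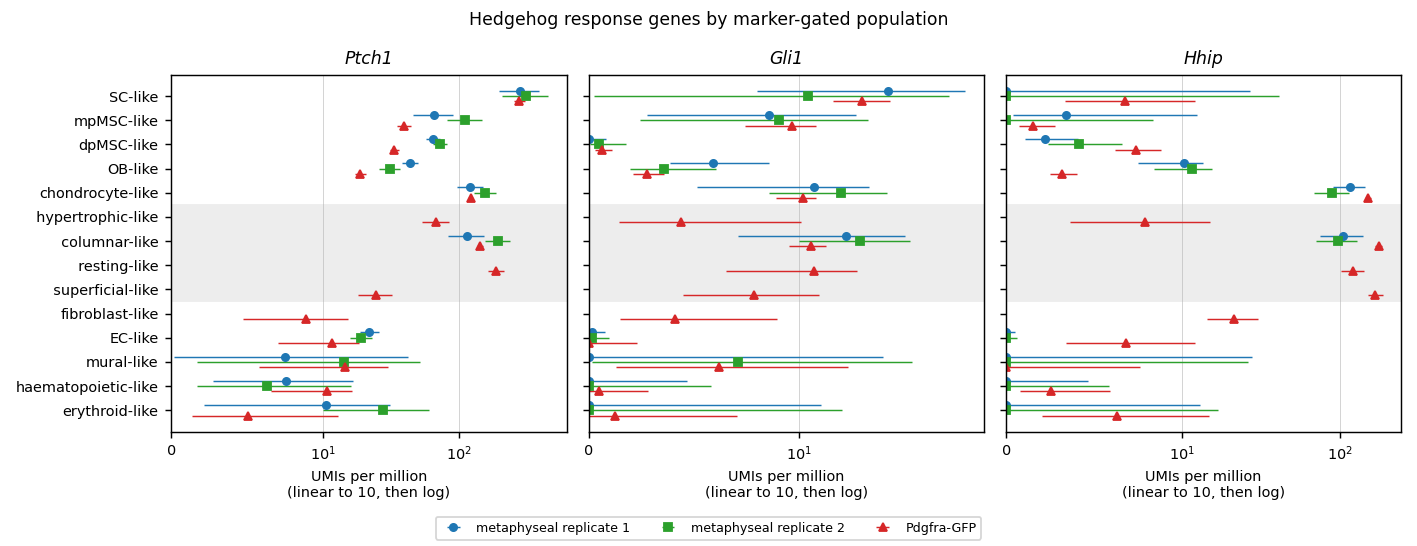
Levels of the response genes *Ptch1*, *Gli1* and *Hhip* in CPM (x axis, linear to 10 and logarithmic above) by marker-gated population (rows, chondrocyte sub-gates shaded), with 1 point per library and exact 95% Poisson intervals as bars. *Ptch1* lies between 277 and 309.9 CPM in SC-like cells of the 3 libraries, while *Hhip* is at 0, 0 and 6.78 CPM in the same cells and between 88.5 and 149.5 CPM in chondrocyte-like cells.

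*Gli1*, a transcription factor gene that is often read as a sign of Hedgehog response, was low in all populations but had the same 2 leading gates as *Ptch1*. SC-like cells had 29.4, 11.1 and 21.6 CPM, from 4, 1 and 35 UMIs, with a mean of 20.7 ± 9.18 CPM (SD, n = 3). Chondrocyte-like cells had 11.9, 16.6 and 10.4 CPM and mpMSC-like cells 8.59, 9.04 and 9.66 CPM. The SC-like values overlapped those of the chondrocyte-like cells and were above the mpMSC-like values in every library, by 3.42-fold (0.679 to 15.9), 1.22-fold (0.0249 to 12.4) and 2.23-fold (1.43 to 3.42). Only the last of these intervals lies above equality. The dpMSC-like cells differed most, with 0, 0.486 and 0.632 CPM from 4368 cells in the largest library, which against the mpMSC-like level is at most 0.0781 times with a floor of 3 UMIs, 0.0537 times (0.00486 to 0.375) and 0.0654 times (0.0311 to 0.125). OB-like cells lay between at 5.89, 3.59 and 2.78 CPM. Near-empty droplets held 4.19, 1.83 and 4.67 CPM of *Gli1*. *Gli1* (chr10:127329882-127341974, minus strand) overlaps *Arhgap9* and *Gm47200* on the other strand, and the strand setting of the counting is not given in the sources used here.

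*Gli2* and *Gli3*, the transcription factor genes that carry most of the activating and repressing function of the pathway, varied less. *Gli2* was at 44.1, 0 and 18.5 CPM in SC-like, 5.15, 11.3 and 7.24 CPM in mpMSC-like, 6.26, 9.22 and 6.90 CPM in dpMSC-like, 9.60, 8.73 and 6.55 CPM in OB-like and 11.9, 15.2 and 15.5 CPM in chondrocyte-like cells. The SC-like libraries spanned the whole range, and in CPM the mpMSC-like, dpMSC-like and OB-like cells were within a narrow band. Chondrocyte-like cells lay above every library of that band. Their fitted log2 difference from mpMSC-like cells was 1.36 and stayed between 0.97 and 1.48 under all alternatives run. For OB-like cells the fitted log2 difference of *Gli2* from mpMSC-like cells was 0.85, between 0.06 and 0.99 under all alternatives run. The narrow band therefore describes CPM only. Resting-like cells of the Pdgfra-GFP library had 35.9 CPM, the highest other value in a population of at least 10 cells. The 3 and 2 metaphyseal resting-like cells had 110 and 64.6 CPM of *Gli2*, from 6 and 2 UMIs. *Gli3* was at 22.02, 66.4 and 14.8 CPM in SC-like, 25.8, 22.6 and 15.4 CPM in mpMSC-like, 20.8, 21.1 and 16.8 CPM in dpMSC-like, 18.3, 16.4 and 7.91 CPM in OB-like and 20.8, 17.98 and 12.2 CPM in chondrocyte-like cells. All of these gates overlapped their neighbours in the order of *Gli3*. Near-empty droplets held 6.52, 6.40 and 7.83 CPM of *Gli2* and 10.7, 9.14 and 9.49 CPM of *Gli3*. The gate at the top of *Gli2* and *Gli3* changed when a library was left out or the gates were drawn differently, so no highest population is named for either: the mean SC-like level of *Gli2* went from 20.8 to 9.24 CPM without metaphyseal replicate 1, and that of *Gli3* from 34.4 to 18.4 CPM without metaphyseal replicate 2.

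*Smo*, which encodes the transducer held in check by PTCH1, was highest in dpMSC-like cells among populations of at least 10 cells. The levels were 150.0, 129.6 and 72.3 CPM in dpMSC-like and 105, 76.8 and 51.2 CPM in mpMSC-like cells, 1.43, 1.69 and 1.41 times as high in the former in the 3 libraries. The values of these gates overlapped across libraries and were separated only within each, and both were lowest in the Pdgfra-GFP library. SC-like cells had 51.4, 44.3 and 49.9 CPM, below mpMSC-like cells in every library though by little in the Pdgfra-GFP library, and OB-like cells 36.9, 33.6 and 20.2 CPM. EC-like (endothelial) cells had 33.4, 36.2 and 11.1 CPM and haematopoietic-like cells 2.53, 3.16 and 4.06 CPM. Near-empty droplets held 55.9, 38.9 and 31.8 CPM of *Smo*, above the OB-like and EC-like values in every library. Chondrocyte-like cells were at 101, 42.9 and 50.1 CPM, lower than mpMSC-like cells in CPM but 0.14 higher on the log2 scale of the fitted model, which scales by TMM, so no direction is given.

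**Figure D3:**
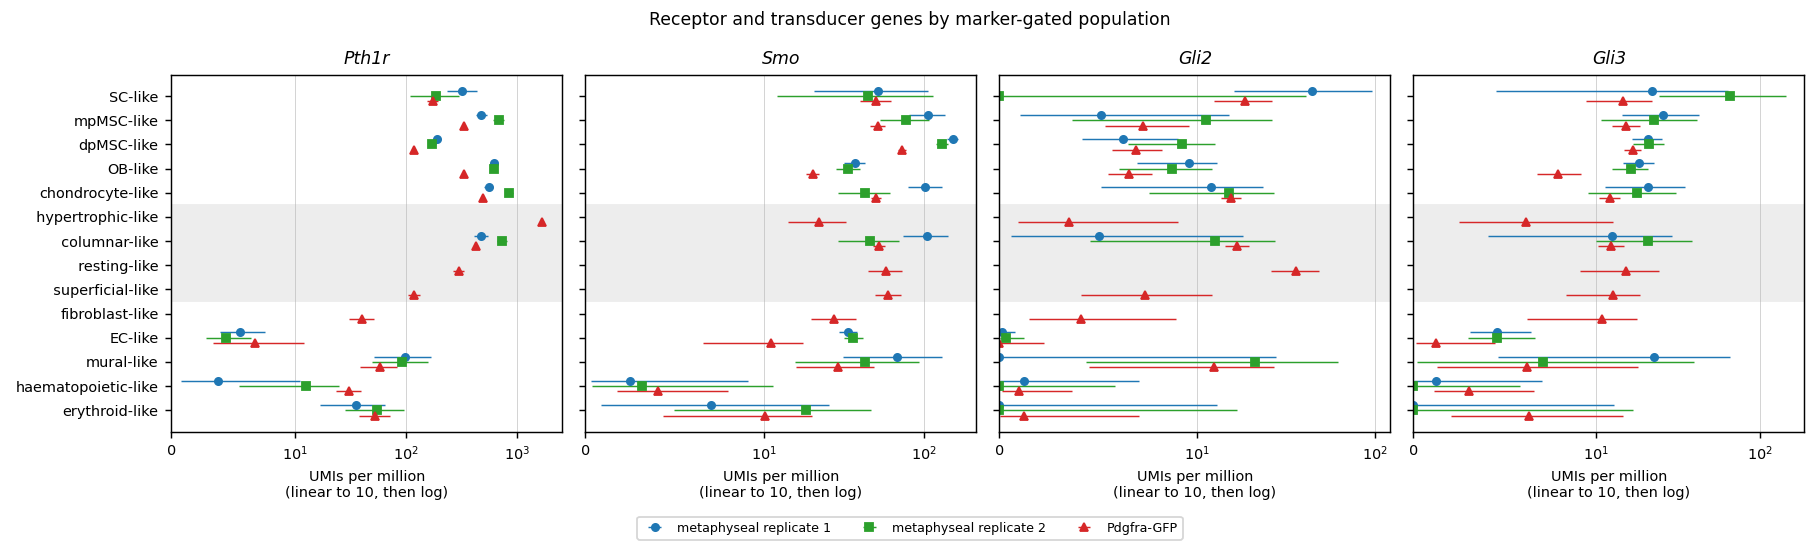
Levels of *Pth1r*, *Smo*, *Gli2* and *Gli3* in CPM (x axis, linear to 10 and logarithmic above) by marker-gated population (rows, chondrocyte sub-gates shaded), with 1 point per library and exact 95% Poisson intervals as bars. *Pth1r* reaches 1674 CPM in hypertrophic-like cells, and *Smo* is at 150.0, 129.6 and 72.3 CPM in dpMSC-like cells.

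*Pth1r*, which encodes the receptor for parathyroid hormone and its related protein, was shared by chondrocyte-like, OB-like and mpMSC-like cells. Its level was 555, 844 and 496 CPM in chondrocyte-like cells (632 ± 186, SD, n = 3), 619, 621 and 335 CPM in OB-like cells (525 ± 165) and 479, 685 and 335 CPM in mpMSC-like cells (499 ± 176). The values of these 3 gates overlapped across libraries. Within each library, chondrocyte-like cells were above mpMSC-like cells. The fitted log2 difference was 0.69 and stayed between 0.36 and 0.78 under all alternatives run. In CPM, OB-like cells had no such constant order with either gate. Their fitted log2 difference from mpMSC-like cells, on the TMM scale in the main setting, was 0.80 and stayed between 0.08 and 0.98 under all alternatives run. SC-like cells had 323, 188 and 174 CPM, which is 0.674, 0.275 and 0.521 times the mpMSC-like level, and dpMSC-like cells had 189, 172 and 119 CPM, which is 0.395, 0.252 and 0.357 times. Both were lower than mpMSC-like cells in each library. EC-like cells had 5.57, 4.40 and 6.80 CPM, while near-empty droplets held 209, 225 and 183 CPM. Within the chondrocytes of the Pdgfra-GFP library the order was hypertrophic-like at 1674 CPM, columnar-like at 428.5 CPM, resting-like at 298 CPM and superficial-like at 118 CPM. Metaphyseal columnar-like cells had 476 and 732 CPM, and the 9 and 8 metaphyseal hypertrophic-like cells had 208 and 800 CPM, so the lead of the hypertrophic-like gate was absent in metaphyseal replicate 1. With a minimum of 500 genes per cell the mean hypertrophic-like level was 877 CPM, and with clusters 836 CPM. A *Pth1r* UMI was found after thinning in 68.0%, 67.0% and 49.2% of OB-like cells and in 1.23%, 1.69% and 3.57% of haematopoietic-like cells.

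*Hhip*, which encodes a membrane protein that sequesters Hedgehog ligands, was highest in chondrocyte-like cells and low or at 0 in SC-like cells. Chondrocyte-like cells had 115, 88.5 and 149.5 CPM, a mean of 117.5 ± 30.6 CPM (SD, n = 3), and held 56.6%, 50.0% and 86.9% of all *Hhip* UMIs in cells. SC-like cells had 0, 0 and 6.78 CPM, where the absence of UMIs in the metaphyseal libraries allows up to 22.02 and 33.2 CPM. The mpMSC-like cells had 3.44, 0 and 1.51 CPM, the dpMSC-like cells 2.24, 4.13 and 7.41 CPM and the OB-like cells 10.3, 11.6 and 3.20 CPM. No library of a stromal or OB-like gate reached the lowest chondrocyte-like value. Near-empty droplets held 5.12, 1.37 and 28.5 CPM of *Hhip*. Of the 3 response genes, *Ptch1* and *Gli1* thus had their highest mean in SC-like cells among the main gates and *Hhip* did not. Within the chondrocytes of the Pdgfra-GFP library, columnar-like cells had 174.5 CPM, superficial-like cells 166 CPM and resting-like cells 121 CPM, while hypertrophic-like cells had 7.92 CPM from 9 UMIs. Metaphyseal columnar-like cells had 103 and 96.2 CPM, and the 9 and 8 metaphyseal hypertrophic-like cells had 0 UMIs of *Hhip*. The 3 and 2 metaphyseal resting-like cells had 625 and 581 CPM of *Hhip* (34 and 18 UMIs), above the columnar-like cells of those libraries, which is the reverse of the order in the Pdgfra-GFP library.

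Single cells of the chondrocyte gate gave the same separation of the ligand and the inhibitor. In metaphyseal replicate 1, *Hhip* UMIs were found in 1 of 16 cells with an *Ihh* UMI (6.25%) and in 48.1% of the 27 cells without. In metaphyseal replicate 2 the numbers were 2 of 13 (15.4%) against 60.9% of 23. In the Pdgfra-GFP library they were 22 of 148 (14.9%, 9.56 to 21.6%) against 53.3% of 1598. The direction was the same in the 3 libraries, and at 2000 UMIs per cell in the Pdgfra-GFP library 2 of 73 cells with *Ihh* (2.74%) and 23.9% of those without had *Hhip*. Cells are not replicates, and cells of 1 library share their source, so no test was made. The same held inside the columnar-like gate of that library, with 22.2% of 72 cells against 60.3% of the others, and after thinning 0 of 21 cells, which allows up to 14.3%, against 25.5%.

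*Pthlh* was also seldom found with *Ihh*, in 0 of 16, 0 of 13 and 5.41% of 148 cells with the ligand against 14.8%, 8.70% and 24.0% of the cells without. For the first 2 libraries, 0 cells allow up to 18.8% and 23.1% by the approximate bound of 3 cells. *Pth1r* accompanied *Ihh* in the Pdgfra-GFP library, in 98.0% against 68.0% of cells (93.2% against 38.0% thinned), but in the metaphyseal libraries the shares were 62.5% against 77.8% and 69.2% against 82.6%, the opposite direction within wide intervals. *Ptch1* in the Pdgfra-GFP library was in 44.6% of cells with *Ihh* and 47.8% of those without, and after thinning in 6.85% and 18.9%. Among chondrocyte-like cells split by *Ptch1* instead, *Hhip* was in 63.2%, 58.3% and 59.3% of cells with a *Ptch1* UMI and in 8.33%, 16.7% and 41.7% of those without, and *Gli1* in 36.8%, 37.5% and 11.7% against 0%, 8.33% and 5.57%. At 2000 UMIs per cell in the Pdgfra-GFP library, *Hhip* was in 33.96% against 20.6% and *Gli1* in 3.74% against 1.48% of them.

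**Figure D4:**
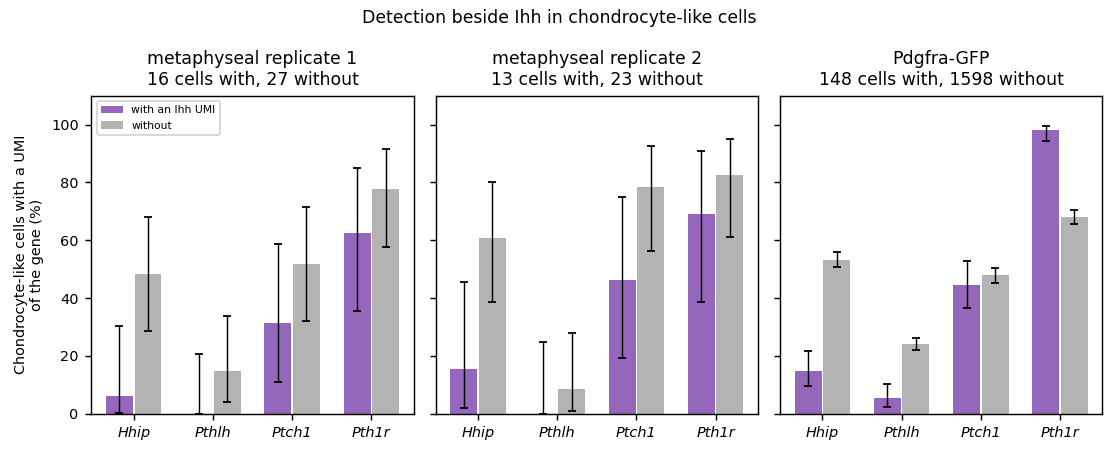
Share of chondrocyte-like cells with a UMI of *Hhip*, *Pthlh*, *Ptch1* or *Pth1r* (y axis, percent, from 0) among cells with an *Ihh* UMI (purple) and without (grey), by library, with exact 95% binomial intervals as bars. *Hhip* is in 6.25%, 15.4% and 14.9% of cells with *Ihh* and in 48.1%, 60.9% and 53.3% of cells without.

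The profiles of the 9 genes were compared over the 13 populations with at least 10 cells, as log2(CPM + 10) of the mean CPM over libraries. For hypertrophic-like, resting-like, superficial-like and fibroblast-like cells that mean is the value of the Pdgfra-GFP library alone. *Ptch1* and *Gli1* had a Pearson correlation of 0.81, *Hhip* and *Pthlh* 0.82, *Smo* and *Gli3* 0.81, and *Ihh* and *Hhip* 0.03. *Gli2* had 0.78 with *Gli1*, 0.76 with *Gli3* and 0.76 with *Ptch1*, and *Pth1r* had 0.66 with *Ptch1*, 0.56 with *Gli1* and 0.53 with *Ihh*. The populations share libraries and depth, and 4 of them are sub-gates of the chondrocytes, so these values describe likeness of profiles only. Among 9766 other genes, those most like *Ihh* were *Pla2g10* (0.96), *Gm45397* (0.94), *Adm2* (0.94), *Loxl4* (0.94) and *Wnk4* (0.93), and those most like *Ptch1* were *Amz2* (0.89), *Pdcd4* (0.87), *Cpa6* (0.86), *Ctdspl* (0.85) and *Tmem141* (0.84). The profile of *Hhip* was closest to *Gm11747* (0.97), *Cpm* (0.96) and *Gm973* (0.96), and that of *Pthlh* to *Epha5* (0.98), *Penk* (0.95) and *Atp6v0a4* (0.93). *Pth1r* was most like *Ell2* (0.93), which was highest in OB-like cells, and *Spp1* (0.92) and *Alpl* (0.89), which were highest in mpMSC-like cells. The highest values were 0.91 with *Snhg4* for *Gli1*, 0.84 with *Cacfd1* for *Gli2*, 0.91 with *Scarf2* for *Gli3* and 0.91 with *2010320M18Rik* for *Smo*.

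All 9 genes passed the filter on low counts, and their direction against mpMSC-like cells is read beside the share of all 14037 genes that behaved the same way in CPM. In SC-like cells, 2 of the 9 (*Ptch1* and *Gli1*) were higher in all 3 libraries, with 13.3% of all genes, and 3 (*Smo*, *Pthlh* and *Pth1r*) were lower in all, with 16.3% of all genes. In OB-like cells, 1 (*Hhip*) was higher in all, with 9.60% of all genes, and 5 were lower, with 53.0% of all genes. In dpMSC-like cells, 1 (*Smo*) was higher in all, with 36.2% of all genes, and 4 (*Ptch1*, *Gli1*, *Pthlh* and *Pth1r*) were lower, with 20.1% of all genes. In chondrocyte-like cells, 7 were higher in all, with 14.9% of all genes, and *Smo* and *Gli3* were lower, with 38.7% of all genes. The genes were chosen for such differences, so nothing is drawn from these counts. In OB-like and chondrocyte-like cells *Gli3* was lower in CPM, but 0.10 and 0.04 higher on the log2 scale of the fitted model. Its direction in these cells therefore also depends on the scaling.

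The rest of the pathway was tested with edgeR's quasi-likelihood model on UMIs summed per library and population, with the library as a block and Benjamini-Hochberg adjustment over 14037 genes. The 3 lists held 27 other Hedgehog pathway genes, 9 other targets and 33 genes of PTH1R signalling, of which 25, 5 and 29 passed the filter on low counts. The scaling matters for 2 of the comparisons: TMM moved all log2 differences up by about 0.74 in OB-like and 0.34 in chondrocyte-like cells against scaling by library totals. With library totals alone, an alternative added after the data were seen, OB-like calls went from 1977 higher and 1976 lower to 697 higher and 6853 lower, chondrocyte-like calls from 2097 and 2056 to 1384 and 3684, and SC-like calls from 253 and 241 to 265 and 170. Changes below are relative to the median gene, which is what TMM scaling gives.

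Few genes of these lists separated SC-like from mpMSC-like cells. *Gas1*, which encodes a co-receptor for Hedgehog ligands, fell from 524 ± 95.1 CPM in mpMSC-like cells to 71.2 ± 40.3 CPM (SD, n = 3), a log2 fold change of -3.40 (SE 0.69, adjusted p = 0.00433, edgeR's quasi-likelihood test), lower in 3 of 3 libraries. *Tulp3*, which carries receptors into the primary cilium, rose from 19.1 ± 2.41 to 43.8 ± 0.612 CPM (log2 fold change 1.22, SE 0.26, adjusted p = 0.00611 in edgeR). *Mycn*, a target in proliferating progenitors, fell from 6.36 to 0.205 CPM (log2 fold change -3.67, adjusted p = 0.0359 in edgeR). The metaphyseal SC-like sums hold only 136213 and 90357 UMIs, so the SC-like levels of *Tulp3* and *Mycn* rest on few UMIs there. The SD of *Tulp3* does not measure this counting error. For *Mycn*, the mpMSC-like level itself lies below the floor of 3 UMIs in sums of that size. The genes called are 1 higher and 1 lower of 25 Hedgehog pathway genes and 1 lower of 5 targets. Of all genes, 3.52% were called, 1.80% higher and 1.72% lower. The median log2 fold changes were -0.31 and -0.80, beside -0.08 over all genes. Of the 29 genes of PTH1R signalling 0 passed in edgeR, as in DESeq2's Wald test, while 2 had an unadjusted p under 0.05 in edgeR, as did 13.1% of all genes, and the median was 0.02. Some alternatives did call PTH1R genes, all of them higher. There were 2 without the filter on low counts, 2 with only the compared populations in the fit and 1 without the Pdgfra-GFP library. The calls were thin: without metaphyseal replicate 2 the adjusted p in edgeR was 0.110 for *Gas1*, 0.0733 for *Tulp3* and 0.209 for *Mycn*, without metaphyseal replicate 1 it was 0.0603 for *Tulp3* and 0.101 for *Mycn*, and without the Pdgfra-GFP library it was 0.640 for *Tulp3*. The fit without the library block gave adjusted p-values in edgeR of 0.0793, 0.0659 and 0.108 for *Gas1*, *Tulp3* and *Mycn*, so that 0 genes of the lists passed. *Mycn* lost its call in 7 of 13 alternatives, also at an adjusted p of 0.172 in DESeq2's Wald test, and in edgeR 0.109 with 20 cells per sum, 0.0683 with 500 genes per cell and 0.0912 with a wider gate margin. With cells thinned to 2000 UMIs the adjusted p of *Tulp3* was 0.0729 in edgeR.

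In OB-like cells, *Tnfsf11*, which encodes RANKL, the inducer of osteoclasts and a target of PTH1R in osteoblast lineage cells, fell from 87.0 ± 8.56 to 3.97 ± 1.55 CPM (log2 fold change -3.59, SE 0.41, adjusted p = 2.82e-07 in edgeR), lower in 3 of 3 libraries. *Nr4a2*, an early gene induced by cyclic AMP, rose from 7.24 to 50.6 CPM (2.95, SE 0.53, adjusted p = 0.000125 in edgeR). *Foxc2* fell from 40.1 ± 18.2 to 4.73 CPM, *Gas1* from 524 to 57.5 ± 12.0 CPM, and the log2 fold changes were -2.45 and -2.47 (adjusted p = 1.38e-06 and 0.000881 in edgeR). *Kif3a*, a motor of ciliary transport, *Bcl2*, *Mycn*, *Adcy5* and *Pde4b* also fell, by 1.33, 1.22, 2.63, 3.45 and 2.24 on the log2 scale, and *Boc*, a co-receptor, and *Disp1*, which releases Hedgehog ligands from cells, rose by 1.40 and 2.21. In all, 2 higher and 4 lower of 25 Hedgehog pathway genes, 3 lower of 5 targets, and 5 higher and 4 lower of 29 PTH1R genes passed, where 28.2% of all genes did (14.1% higher and 14.1% lower). The medians were -0.28, -1.22 and 0.10, beside -0.03 over all genes. With library totals these counts became 1 higher and 16 lower, 4 lower, and 1 higher and 14 lower, and *Boc* no longer passed (log2 fold change 0.65, adjusted p = 0.114 in edgeR). Without metaphyseal replicate 1 the adjusted p of *Bcl2* in edgeR was 0.0654, with 2 of 5 targets and 6 of 29 PTH1R genes called, and without metaphyseal replicate 2 that of *Pde4b* was 0.0739. With cells thinned to 2000 UMIs, 1 of 25 pathway genes and 1 of 5 targets passed, and the adjusted p-values in edgeR were 0.0732 (*Boc*), 0.0834 (*Disp1*), 0.0661 (*Kif3a*) and 0.308 (*Bcl2*). Median depth was 21173.5, 20693 and 11317.5 UMIs in OB-like against 10058, 10250 and 6228 UMIs in mpMSC-like cells, and its part in these calls was not tested further.

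In dpMSC-like cells the targets of the pathway were the list with the most calls for its size. *Ccnd1*, which encodes cyclin D1, fell from 83.7 ± 44.5 to 5.07 CPM (log2 fold change -3.87, SE 0.50, adjusted p = 1.9e-06 in edgeR), lower in 3 of 3 libraries. *Mycn* fell by 4.60, *Foxc2* by 1.40 and *Ccnd2*, another D-type cyclin gene, by 1.16 on the log2 scale, the last from 304 to 145 CPM (adjusted p = 0.0242 in edgeR). *Sik1*, a kinase gene induced by cyclic AMP, rose from 3.40 to 31.5 ± 23.9 CPM (2.65, adjusted p = 7.52e-05 in edgeR), and *Rgs2*, *Arrb1* and *Crtc3* rose by 1.48, 1.31 and 1.14 on the log2 scale. *Gas1* and *Scube1*, whose product helps release Hedgehog ligands, fell by 1.53 and 1.75, and *Sufu*, which encodes a brake on GLI factors, and *Tulp3* rose by 0.92 and 0.75, *Sufu* from 13.4 to 29.7 CPM. The counts were 2 higher and 3 lower of 25 pathway genes, 1 higher and 4 lower of 5 targets, and 5 higher and 1 lower of 29 PTH1R genes, where 20.3% of all genes passed (10.8% higher and 9.44% lower), and the medians were 0.14, -1.40 and 0.30 beside 0.08. In the pathway list 0 genes passed without metaphyseal replicate 1 and 0 without metaphyseal replicate 2 in edgeR, and 0 in the fit without the library block, so its 5 calls need both replicates and the pairing of sums by library. Without metaphyseal replicate 1 the adjusted p-values in edgeR were 0.128 (*Gas1*), 0.160 (*Scube1*), 0.238 (*Sufu*), 0.0787 (*Tulp3*), 0.0718 (*Ccnd2*) and 0.118 (*Rgs2*). Without metaphyseal replicate 2 they were 0.217 (*Gas1*), 0.104 (*Scube1*), 0.0971 (*Sufu*), 0.0977 (*Tulp3*), 0.277 (*Ccnd2*) and 0.0572 (*Arrb1*), and without the Pdgfra-GFP library 0.537 (*Scube1*) and 0.163 (*Tulp3*). In DESeq2's Wald test the adjusted p was 0.113 for *Gas1* and 0.0708 for *Scube1*, and with thinned cells it was 0.0531 for *Sufu* and 0.0902 for *Tulp3* in edgeR. With library totals *Gas1* and *Scube1* no longer passed (adjusted p = 0.0510 and 0.0513 in edgeR). Either metaphyseal library left out gave 3 of 5 targets and 3 of 29 PTH1R genes.

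In chondrocyte-like cells, the named pathway genes were the *Scube* genes and *Cdon*. *Scube3*, *Scube1* and *Scube2*, a family of secreted proteins of which SCUBE2 is known to release lipid-modified Hedgehog, rose by 6.25 (SE 0.66, adjusted p = 3.11e-07 in edgeR), 4.07 and 3.97 on the log2 scale, each higher in 3 of 3 libraries, with *Scube3* at 51.4 against 0.151 CPM and *Scube1* at 34.04 against 2.23 CPM. *Cdon*, which encodes a co-receptor, rose from 3.96 to 20.3 CPM (3.06, SE 0.39, adjusted p = 9.69e-07 in edgeR). *Pde4b*, a phosphodiesterase gene that limits cyclic AMP, rose from 7.26 to 86.4 CPM (3.95, adjusted p = 5.02e-08 in edgeR), and *Nr4a1* and *Nr4a2* each rose by 3.17. *Tnfsf11*, *Mycn*, *Ccnd2* and *Foxc2* fell by 2.68, 4.25, 1.43 and 1.40 on the log2 scale. The counts were 9 higher and 4 lower of 25 pathway genes, 0 higher and 3 lower of 5 targets, and 7 higher and 5 lower of 29 PTH1R genes, where 29.6% of all genes passed (14.9% higher and 14.6% lower). The medians were 0.19, -1.40 and 0.09, beside -0.00 over all genes. With library totals the split became 5 higher and 8 lower of the pathway genes and 3 higher and 9 lower of the PTH1R genes, and the named genes kept their direction. Without metaphyseal replicate 1 and without metaphyseal replicate 2 the adjusted p of *Ccnd2* in edgeR was 0.0860 and 0.131, and the pathway count of 13 was 8 without metaphyseal replicate 2 and 5 without the Pdgfra-GFP library. That count was also 5 with cells thinned to 2000 UMIs, 5 with only the compared populations in the fit and 7 without the library block. Median depth was 16146, 20774 and 8413 UMIs in chondrocyte-like against 10058, 10250 and 6228 UMIs in mpMSC-like cells. Its part in these calls was not tested further.

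**Figure D5:**
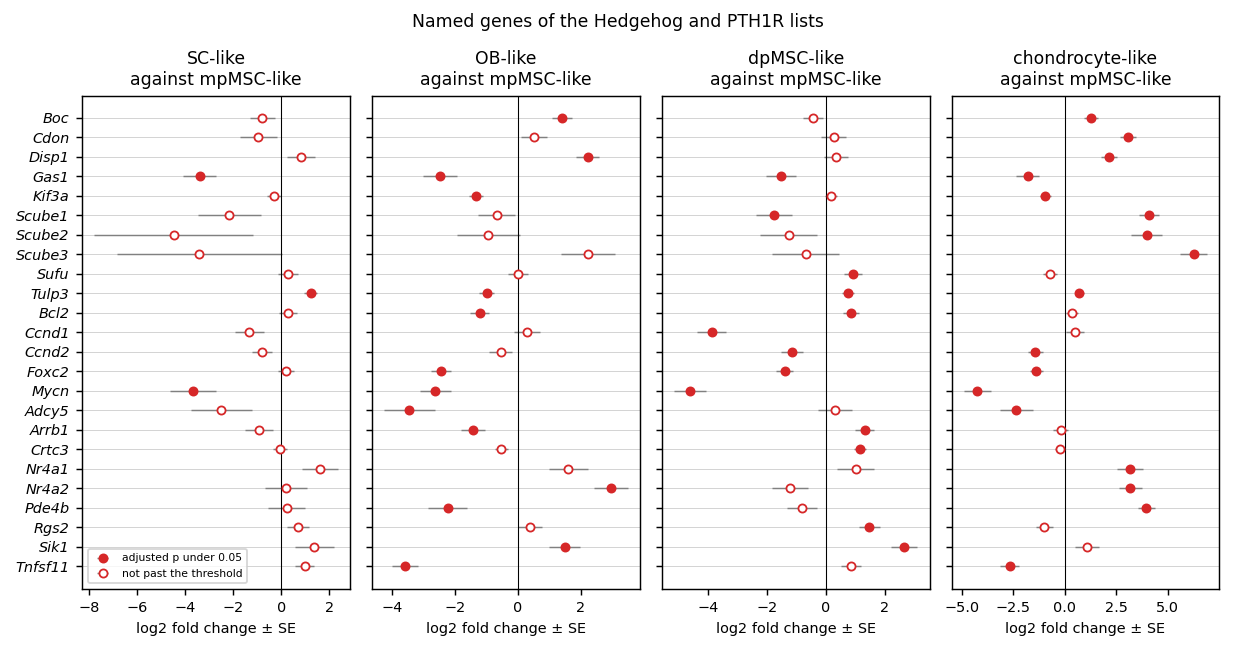
Log2 fold changes from edgeR's quasi-likelihood model (x axis, bars show ± SE) of the named genes of the Hedgehog and PTH1R lists (rows) in 4 populations against mpMSC-like cells, with filled points past an adjusted p of 0.05. *Gas1* is at -3.40 in SC-like cells, *Tnfsf11* at -3.59 in OB-like cells, *Ccnd1* at -3.87 in dpMSC-like cells and *Scube3* at 6.25 in chondrocyte-like cells.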

How the data were processed

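The authors trimmed reads with fastp 0.20 and counted them with STARsolo (STAR 2.7.3a) on mm10 with a Gencode M23 annotation to which H2B-GFP was added. The deposited values are raw UMI counts for each gene and barcode of 3 libraries, with empty droplets left in and nothing normalized. Libraries were made with a Chromium 3′ kit, V3 in the study's methods and V2/V3 in the labels. The strand setting is not given in the sources used here.

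Cells needed 1500 genes (metaphyseal) or 1000 (Pdgfra-GFP), no more than 15% mitochondrial UMIs and no more than 30% ribosomal ones. EmptyDrops was not run. Gates compared marker scores (UMIs scaled to their 90th percentile), with a minimum of 0.2 (erythroid 0.5) and a margin of 0.05 over the next list, which left 2.35%, 2.44% and 9.67% of cells ungated. Scrublet in scanpy 1.11.5 called 24, 18 and 164 doublets (expected rates 1.91%, 1.60% and 9.00%), which were kept. Sums of the counts over each population of 10 or more cells in a library were tested with edgeR 4.0.16 in R 4.3.3 (TMM, quasi-likelihood, library as block, adjusted p threshold 0.05). The edgeR test was also run on counts simulated with the mean levels and fitted dispersions of these data. DESeq2 1.42.0 was an alternative, and intervals came from scipy 1.17.1. Sums from 1 library share a cell suspension and are therefore paired. Deviations of paired sums correlated at 0.0533, 0.0625 and 0.303 (SC-like with mpMSC-like, across genes), and at 0.210, 0.204 and 0.587 for OB-like sums.

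Named are the 9 genes, the up to 4 genes per list and comparison with the largest fold change among those past the threshold and alike in every library, and up to 5 genes of most similar profile with at least 20 CPM in a population. Members, lists and markers were chosen with earlier results of these data known. Alternatives changed the scaling, the test, which populations were fitted, the library block, the low-count filter, the limits on cells, the doublets, the gates, the depth per cell and the libraries, 1 at a time, and scaling by library totals was added after the data were seen.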

Additional observations from a re-analysis of the deposited data

Results flagged for a closer look

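For 2 genes, the 2 metaphyseal libraries moved one way between 2 populations and the Pdgfra-GFP library moved the other way. None of these differences between kinds of library was tested, since there was only 1 Pdgfra-GFP library. Values are differences in CPM for metaphyseal replicate 1, metaphyseal replicate 2 and Pdgfra-GFP.

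*Gli3* in dpMSC-like minus mpMSC-like cells was -4.97, -1.47 and 1.44 CPM. In SC-like minus dpMSC-like cells it was 1.23, 45.3 and -2.05 CPM, where 10 SC-like cells gave the value of metaphyseal replicate 2.

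*Hhip* in SC-like minus OB-like cells was -10.2, -11.6 and 3.57 CPM, with 0 UMIs in the metaphyseal SC-like cells. In OB-like minus dpMSC-like cells it was 8.01, 7.43 and -4.21 CPM. Near-empty droplets held 5.12, 1.37 and 28.5 CPM of *Hhip*, so in the Pdgfra-GFP library all of these gates lay below the near-empty level. The OB-like level itself went from 10.3 and 11.6 CPM to 3.20 CPM and the dpMSC-like level from 2.24 and 4.13 CPM to 7.41 CPM, and chondrocyte-like cells, which held most *Hhip* UMIs, made up 20.2% of the cell UMIs of the Pdgfra-GFP library against 3.49% and 4.38%. Their part in the result was not tested.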

How the results depend on the processing

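The number of genes called in SC-like against mpMSC-like cells was 494. It was 837 without the filter on low counts, 307 with cells thinned to 2000 UMIs and 128 to 274 when 1 library was left out (274 without metaphyseal replicate 1, 165 without metaphyseal replicate 2, 128 without the Pdgfra-GFP library). For OB-like against mpMSC-like cells the number of 3953 was 2266 with thinned cells, 7550 with library totals and 2433 to 2903 with 1 library left out. For dpMSC-like against mpMSC-like cells the number of 2846 was 1836 with thinned cells and 1737 to 2475 with 1 library left out. For chondrocyte-like against mpMSC-like cells the number of 4153 was 2616 with thinned cells and 2259 with only the compared populations in the fit. The fit without the library block, which ignores the pairing of sums, gave 159, 2131, 1573 and 2703 genes for the same comparisons. The causes were not tested, beyond fewer sums entering the fit where a library was left out. No call of a named list gene changed direction under the alternatives run. The fitted log2 difference of some members did, from -2.14 to 1.63 for *Ihh*, -0.47 to 0.54 for *Gli3*, -4.81 to 2.21 for *Hhip* and -4.58 to 0.47 for *Pthlh* in SC-like, -0.66 to 0.18 for *Gli3* in OB-like, -1.57 to 0.01 for *Ihh* in dpMSC-like, and -0.21 to 0.32 for *Smo* and -0.37 to 0.09 for *Gli3* in chondrocyte-like cells. With library totals the called PTH1R genes of OB-like cells turned from 5 higher and 4 lower to 1 higher and 14 lower. Of the 570 values of named list genes, 50 lost the call and 520 kept it, and 21 of the 37 named results kept it under all their alternatives. The population with the highest level stayed for 7 to 9 of the 9 genes: *Gli2*, *Gli3*, *Pthlh* (without the Pdgfra-GFP library) and *Pth1r* (thinned cells) changed theirs. A minimum of 20 cells per sum and clusters in place of gates left SC-like sums in the Pdgfra-GFP library only. Precision is limited by the 13 and 10 metaphyseal SC-like cells and by 1 Pdgfra-GFP library.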
